A study of Mus musculus with 6 samples.

Results

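The comparison of a Pax5 vector with its empty vector was taken from a series of 6 Affymetrix arrays, of which 4 belong to it by their labels, 2 Pax5 arrays and 2 Control arrays. The cells were mouse pre-pro-B cells, early lymphoid progenitors, from an Ebf1-/- line, so that all groups share the disruption of the gene for EBF1, the factor that starts the B-cell programme. Pax5 cells had received MigR-Pax5, a retroviral vector that carries Pax5, and Control cells the empty MigR1 vector, while the 2 further arrays of the series hold cells given MigY-EBF1. All cells grew on a layer of OP9 stroma in medium with IL-7, stem cell factor and FLT3 ligand, each at 10 ng/ml, and sorted cells were harvested 24 h after transduction. Each array was made from 50 ng of total RNA. Age, sex and the number of clones in the line are not given in the labels, and nothing in them says that arrays 1 and 2 of a group came from separate transductions. The p-values therefore measure only how far these samples spread, and that spread may be technical.

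Pax5 is a transcription factor with a paired DNA-binding domain that acts downstream of E2A and EBF1 and commits lymphoid progenitors to the B lineage. It is known to activate genes of B-cell receptor signalling and B-cell adhesion, such as Blnk and Nedd9, and to repress genes of other lineages, such as Notch1, Flt3 and Fcer1g. In normal development it is induced by EBF1, so the deposited arrays address what Pax5 does to these progenitors when it arrives by vector and Ebf1 is disrupted.

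Values are log2 expression values after RMA, and a change is the Pax5 mean minus the Control mean on that log2 scale, with its SE from limma and n = 2 arrays per group. A gene is said to have risen or fallen when its limma p, after Benjamini-Hochberg adjustment across all 15295 genes tested, was at most 0.05; every adjusted p given comes from limma. The Pax5 probe set (10512669, chromosome 4) read 11.42 and 11.33 on the Pax5 arrays, against 4.93 and 5.10 on the Control arrays. The Pax5 label was thus matched by the gene that it names. One Ebf1 probe set (10375360) read 8.92 and 8.87 on the Pax5 arrays, against 8.87 and 8.87 on the Control arrays, and since the labels do not say which part of the gene it covers, it does not check the disruption. A second Ebf1 probe set (10375358) read 6.02 and 6.04 on the Pax5 arrays, against 4.70 and 4.75 on the Control arrays (change 1.30, SE 0.08, adjusted p = 0.00277 over all probe sets, of which 3.19% passed).

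Markers of the starting cell gave clear signals on all 4 arrays, some of them lower in Pax5 cells. Kit, the stem cell factor receptor, read 8.21 and 8.42 on the Pax5 arrays and 8.18 and 8.14 on the Control arrays. Cd93, a marker of early B-lineage progenitors, read 8.93 and 9.05 on the Pax5 arrays and 9.10 and 9.07 on the Control arrays. Spn, which encodes CD43, read 7.51 and 7.60 on the Pax5 arrays and 7.38 and 7.36 on the Control arrays. These 3 did not pass the test, whereas Flt3, Il7r and Dntt, also markers of such progenitors, fell, as described with their lists.

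In all, 646 genes changed (4.22% of those tested), 331 higher (2.16%) and 315 lower (2.06%). The rises were larger than the falls. At least 2-fold changes numbered 118 (0.771%), of which 94 were rises and 24 were falls, and the median rise was 0.76 against a median fall of -0.59. The median change of all genes was -0.04. With each array centred on its median 385 genes rose and 243 fell, a share of rises of 61.3% against 51.2% here, and with quantile normalization 362 rose and 256 fell. The count depended on the spread that entered the fit: with the 4 Pax5 and Control arrays fitted alone, 240 genes passed. A fit without an EBF1 array is that same fit, since an array alone in its group adds nothing to the spread. Without a Control or a Pax5 array the spread likewise comes from the other groups, so counts from such fits also change with it. Genes were not filtered anew for these fits. Genes tested through the Pax5 arrays alone, such as Blnk and Hbb-bh1, therefore stayed in them. Of the 646 genes, 53 passed whichever of the 6 arrays was left out, 47 of them rises and 6 falls. The arrays hold RNA of many cells, so fewer cells of a type and less RNA per cell cannot be told apart.

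The 3 genes that mark this comparison were among the largest rises. They were picked for it beforehand, and list members were chosen with earlier results of these data known, so their rank is a description. Blnk, the adaptor that links the pre-B-cell receptor to its kinases, read 5.97 and 6.20 on the Pax5 arrays, against 2.73 and 2.80 on the Control arrays (change 3.32, SE 0.10, adjusted p = 0.000125). Irf4, a transcription factor of the pre-B stage that promotes light-chain recombination, read 6.71 and 6.75 on the Pax5 arrays, against 3.49 and 3.53 on the Control arrays (change 3.22, SE 0.13, adjusted p = 0.000296). Cd24a, which encodes the heat-stable antigen that rises as B-cell progenitors mature, read 9.97 and 9.94 on the Pax5 arrays, against 6.80 and 6.99 on the Control arrays (change 3.06, SE 0.09, adjusted p = 0.000125). The groups lay far apart for all 3, and each passed whichever array was left out. Both Control values of Blnk lay below the 30th percentile of their arrays (2.99 and 2.92), so without the Pax5 arrays Blnk would not have been tested, and its change is a difference against a level near the floor. Of the 331 rises 9 would not have been tested without the Pax5 arrays, and of the 315 falls 2 would not have been without the Control arrays.

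**Figure D1:**
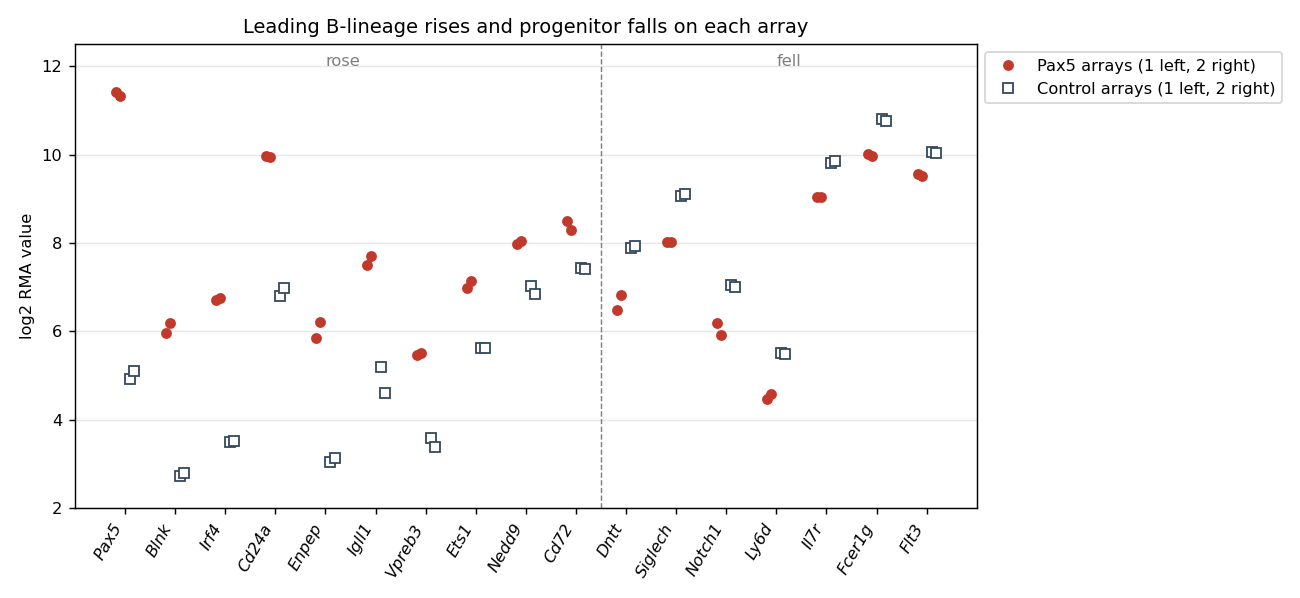
Log2 RMA values (vertical axis) of 17 genes on the 2 Pax5 arrays (filled circles) and the 2 Control arrays (open squares), with 10 genes that rose left of the dashed line and 7 that fell right of it. Blnk lies at 5.97 and 6.20 on the Pax5 arrays and at 2.73 and 2.80 on the Control arrays. The 17 genes were picked among called genes, none of which have overlapping groups, as was so for 51.4% of all genes tested.

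Every gene known as activated by Pax5 that passed the test rose. Of 27 listed genes 23 could be tested, 9 rose and 0 fell, with a median change of 0.44 over the tested members (all genes: 2.16% rose, median -0.04). The list was chosen with earlier results of these data known, so this count is a description. Besides Blnk and Irf4, Vpreb3, a B-lineage endoplasmic reticulum protein, read 5.46 and 5.52 on the Pax5 arrays, against 3.60 and 3.40 on the Control arrays (change 1.99, SE 0.19, adjusted p = 0.00531). Nedd9, a scaffold protein of adhesion and migration, rose by 1.08. The inhibitory receptors Siglecg and Cd72 rose by 1.01 and 0.97, the phosphoinositide-binding adaptor Plekha2 by 0.97 and the transcription factor Irf8 by 0.72.

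Not every known target of Pax5 passed. Cd79a, which carries the signal of the B-cell receptor, read 3.62 and 2.92 on the Pax5 arrays, against 3.0 and 3.01 on the Control arrays, so the groups overlapped (change 0.26, 95% interval -0.34 to 0.87). Spib, a transcription factor of the ETS family, read 4.11 and 3.98 on the Pax5 arrays and 3.22 and 3.22 on the Control arrays, with a change of 0.83 that narrowly missed (adjusted p = 0.0537). Without Control 1 only 3 members of this list passed and without Control 2 only 2, whereas 9 passed with the 4 Pax5 and Control arrays fitted alone. Blnk and Irf4 passed in every such fit.

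The chains of the pre-B-cell receptor split (all genes: 2.16% rose, 2.06% fell). This receptor pairs an immunoglobulin heavy chain with the surrogate light chain, which is built from Igll1 and a Vpreb protein, and signals through Cd79a and Cd79b. Of 26 listed chains and proximal signalling genes 25 were tested, 6 rose and 1 fell (2 and 0 with either Control array left out; median change 0.18). Igll1 read 7.51 and 7.71 on the Pax5 arrays, against 5.20 and 4.62 on the Control arrays (change 2.70, SE 0.19, adjusted p = 0.00228), and passed whichever array was left out. Vpreb1 read 6.24 and 5.87 on the Pax5 arrays, against 4.94 and 5.06 on the Control arrays (change 1.06, adjusted p = 0.0138). Its near-identical copy Vpreb2 read 4.28 and 3.78 on the Pax5 arrays and 4.36 and 3.91 on the Control arrays, and probes of such copies may share signal. Cd79b, the second signalling chain, read 4.43 and 3.77 on the Pax5 arrays and 4.11 and 3.98 on the Control arrays. The groups overlapped for Vpreb2 and Cd79b, and the 95% intervals of the changes ran from -0.60 to 0.39 for Vpreb2 and from -0.44 to 0.55 for Cd79b. Btk, a kinase downstream of the receptor, rose by 0.46, and Dapp1, an adaptor of B-cell receptor signalling, fell by 0.49.

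Against the EBF1 arrays the same genes took different sides. Igll1 lay at 10.34 and 10.36 on the EBF1 arrays and was 2.74 lower in Pax5 cells than in EBF1 cells on the log2 scale (adjusted p = 0.000883). Vpreb1 was lower in Pax5 cells than in EBF1 cells by 3.53 (adjusted p = 0.0002). Blnk, at 2.90 and 2.99 on the EBF1 arrays, was higher in Pax5 cells by 3.14 (adjusted p = 0.00011), again against values near the 30th percentile of the EBF1 arrays (2.96 and 2.94). The marker gene Cd24a rose with both vectors. It read 9.04 and 9.02 on the EBF1 arrays, and was higher in EBF1 cells than in Control cells by 2.14 (adjusted p = 0.000298). In Pax5 cells it was higher than in EBF1 cells by 0.93 (adjusted p = 0.00231). Over all genes, 5.2% were higher and 8.72% lower in Pax5 than in EBF1 cells. Among the 20 largest rises over Control, 18 were also higher than in EBF1 cells, Igll1 was lower, and Lta did not pass (0.18, adjusted p = 0.257). The same Pax5 arrays chose these 20 genes, so this count is a description.

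Besides Irf4, 2 other B-lineage transcription factors rose. Of 24 listed 23 were tested, and Irf4, Irf8 and Ets1 rose while 0 fell (2.16% of all genes rose; 2 rises with either Control array left out; median change 0.09). Ets1, a factor expressed in maturing lymphocytes, read 6.99 and 7.15 on the Pax5 arrays, against 5.63 and 5.63 on the Control arrays (change 1.44, SE 0.09, adjusted p = 0.0018). It passed whichever array was left out. Tcf3, which encodes the E2A proteins, read 8.32 and 8.34 on the Pax5 arrays and 8.09 and 8.11 on the Control arrays, and its change of 0.23 did not pass (adjusted p = 0.152). Runx1, a factor needed for B-cell specification, read 8.96 and 9.02 on the Pax5 arrays and 8.69 and 8.60 on the Control arrays, and did not pass either (change 0.34, adjusted p = 0.0702).

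Surface markers used to stage early B cells moved in both directions (all genes: 2.16% rose, 2.06% fell). Of 19 listed 16 were tested, 3 rose and 2 fell (2 and 0 with either Control array left out; median change -0.05). Enpep, the aminopeptidase BP-1 that marks late pro-B and pre-B cells, read 5.85 and 6.22 on the Pax5 arrays, against 3.04 and 3.14 on the Control arrays (change 2.94, SE 0.18, adjusted p = 0.00143). Enpep and Cd24a passed whichever array was left out. Ly6d, which marks lymphoid progenitors turning to the B lineage, read 4.47 and 4.59 on the Pax5 arrays, against 5.52 and 5.48 on the Control arrays, and fell by 0.97 (adjusted p = 0.00379). Cd69, an early activation antigen, fell by 0.50.

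Among genes known as repressed by Pax5 more fell than rose, by less than 2-fold each. This list, too, was chosen with earlier results of these data known. Of 17 listed 16 were tested, 6 fell and 1 rose, with a median change of -0.28 (2.06% of all genes fell), but 0 passed with either Control array left out. Notch1, the receptor that directs progenitors to the T lineage, read 6.20 and 5.93 on the Pax5 arrays, against 7.06 and 7.02 on the Control arrays (change -0.97, SE 0.11, adjusted p = 0.0102). Fcer1g, the signalling chain shared by Fc receptors, read 10.00 and 9.97 on the Pax5 arrays, against 10.79 and 10.76 on the Control arrays (change -0.79, SE 0.08, adjusted p = 0.00574). Both Pax5 arrays lay below both Control arrays in these genes, as they did in one direction or the other for 51.4% of all genes tested. The plasma-cell genes Sdc1 and Xbp1 fell by 0.75 and 0.53, and the transmembrane glycoprotein gene Emb fell by 0.55, although its second probe set had a change of 0.00 (adjusted p = 0.992 over all probe sets). Flt3, the receptor for FLT3 ligand, read 9.57 and 9.52 on the Pax5 arrays, against 10.05 and 10.04 on the Control arrays, and fell by 0.50. Ccl3, a chemokine, rose by 0.60. The chemokine receptor Ccr2 and the costimulatory receptor Cd28, both on this list, had positive changes that did not pass (0.32 and 0.47).

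The receptors of the cytokines in the medium were read together with their signalling genes (all genes: 2.16% rose, 2.06% fell). Of 21 genes of cytokine receptors and JAK-STAT5 signalling, 3 fell and 0 rose (0 and 0 with either Control array left out; median change -0.17). Il7r, the IL-7 receptor chain, read 9.05 and 9.05 on the Pax5 arrays, against 9.82 and 9.85 on the Control arrays (change -0.79, SE 0.07, adjusted p = 0.00498). Pim1, a survival kinase induced by STAT5, fell by 0.54, and the third was Flt3. Pim2, a kinase of the same family, read 6.93 and 6.37 on the Pax5 arrays and 7.51 and 7.40 on the Control arrays, and its change of -0.81 did not pass (adjusted p = 0.0699).

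The regulators of proliferation and survival that passed changed by less than 2-fold, mostly upward (all genes: 2.16% rose, 2.06% fell). Of 20 D cyclins, CDK inhibitors and Myc family genes, 4 rose and 1 fell (0 and 0 with either Control array left out; median change -0.02). Ccnd3, the D cyclin of pre-B cells, rose by 0.46, while Ccnd2 fell by 0.39, with -0.10 at its second probe set (adjusted p = 0.73 over all probe sets). The CDK inhibitors Cdkn2d and Cdkn1a rose by 0.53 and 0.45 and the Myc antagonist Mxd4 by 0.43. Myc read 9.93 and 9.81 on the Pax5 arrays and 9.99 and 9.99 on the Control arrays, a change of -0.12 that did not pass (adjusted p = 0.446). In the BCL2 family 16 genes were listed and 14 tested, 3 rose and 0 fell (0 rises with either Control array left out). These were Bcl2l1 (0.90), which encodes the survival protein BCL-XL, and the BH3-only death genes Bcl2l11 (0.69) and Bmf (0.60). Mcl1, another survival gene, differed by -0.10 and did not pass.

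Of 26 cell cycle and replication genes 25 were tested, and limma called 0 (all genes: 2.16% rose, 2.06% fell). Changes ran between -0.40 for Mcm3, a subunit of the replicative helicase, and 0.27 for Rrm2, a ribonucleotide reductase subunit. Neither of these reached the threshold (adjusted p = 0.0726 for Mcm3 and 0.157 for Rrm2), and without Pax5 1 the list had 1 fall. Of 24 genes of glucose uptake, energy and glucocorticoid response 23 were tested, and Hk2, a hexokinase, fell by 0.48 (median change -0.17; 0 with either Control array left out, 5 falls without Pax5 1). Txnip, an inhibitor of glucose uptake, read 9.46 and 9.46 on the Pax5 arrays and 9.25 and 9.15 on the Control arrays, and its change of 0.26 did not pass (adjusted p = 0.141). Of 16 p53 targets 14 were tested, Trp53inp1 (0.49) and Cdkn1a rose and Phlda3 (-0.73) fell (0 with either Control array left out).

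The 2 genes of V(D)J recombination that passed were lower (all genes: 2.16% rose, 2.06% fell). Of 17 tested, 2 fell and 0 rose (0 and 0 with either Control array left out; median change -0.07). Dntt, the terminal transferase that adds bases at heavy-chain joints, read 6.48 and 6.82 on the Pax5 arrays, against 7.90 and 7.94 on the Control arrays (change -1.27, SE 0.12, adjusted p = 0.00574). Rag1, which encodes the catalytic subunit of the recombinase, read 5.83 and 5.99 on the Pax5 arrays, against 6.53 and 6.54 on the Control arrays, and fell by 0.63. Its partner Rag2 read 9.35 and 9.06 on the Pax5 arrays and 8.97 and 8.96 on the Control arrays, a change of 0.23 that did not pass (adjusted p = 0.298).

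Genes of other lineages went both ways (all genes: 2.16% rose, 2.06% fell). Of 22 T-lineage genes 20 were tested, 2 rose and 2 fell (0 and 0 with either Control array left out; median change 0.05). Ctla4, the gene of an inhibitory receptor of T cells, read 4.98 and 4.86 on the Pax5 arrays, against 6.30 and 6.32 on the Control arrays (change -1.39, SE 0.15, adjusted p = 0.00748). Tox, a nuclear factor of T-cell and innate lymphoid development, fell by 0.84. The costimulatory receptor Icos rose by 0.91 and Cd7 by 0.69. Icos and Ctla4, members of one receptor family, therefore moved in opposite directions. Gata3, a T-lineage transcription factor, read 5.65 and 6.0 on the Pax5 arrays and 5.41 and 5.61 on the Control arrays, and did not pass. The summed unlogged signal of the T-lineage list was 1213 and 1216 on the Pax5 arrays, against 1382 and 1333 on the Control arrays. Without the 4 called genes, Tox among them, it was 646 and 663 on the Pax5 arrays, against 607 and 582 on the Control arrays.

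Of 18 Notch receptors, modulators and targets only Notch1 fell and 0 rose (0 with either Control array left out). The receptor gene Notch2 differed by -0.37 (adjusted p = 0.0818), the modulator Lfng by -0.44 (adjusted p = 0.137) and the target gene Hes1 by 0.33 (adjusted p = 0.151). From the list for NK cells and other innate lymphocytes 14 of 20 genes were tested, and Fcer1g and the IL-18 receptor gene Il18r1 (-0.67) fell (0 with either Control array left out). Id2, an inhibitor of E proteins on this list, read 8.32 and 8.15 on the Pax5 arrays and 8.65 and 8.69 on the Control arrays, and just missed (change -0.43, adjusted p = 0.0611). Among all genes tested 2.16% rose and 2.06% fell, and the median change of the NK list was -0.10. Its summed unlogged signal was 3222 and 3136 on the Pax5 arrays, against 4333 and 4336 on the Control arrays, and without Fcer1g and Il18r1 it was 1818 and 1770 on the Pax5 arrays, against 1969 and 2005 on the Control arrays.

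Dendritic cell genes also split (all genes: 2.16% rose, 2.06% fell). Of 20 dendritic cell and MHC class II genes 16 were tested, 3 rose and 2 fell (0 and 1 with either Control array left out; median change -0.03). Siglech, a lectin of plasmacytoid dendritic cells, read 8.01 and 8.03 on the Pax5 arrays, against 9.07 and 9.11 on the Control arrays (change -1.07, SE 0.08, adjusted p = 0.00241), and passed whichever array was left out. Zeb2, a transcription factor of dendritic and other blood cells, read 6.96 and 7.15 on the Pax5 arrays, against 5.92 and 5.94 on the Control arrays, and rose by 1.13 (adjusted p = 0.00377). Itgax, the integrin chain CD11c, rose by 0.75. The summed unlogged signal of this list was 2636 and 2524 on the Pax5 arrays, against 2913 and 2885 on the Control arrays, and without its 5 called genes 2013 and 1905 on the Pax5 arrays, against 2146 and 2102 on the Control arrays.

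Of 21 myeloid genes 16 were tested and 1 fell (0 with either Control array left out). This was Mpo, myeloperoxidase, which read 6.29 and 6.44 on the Pax5 arrays, against 7.39 and 7.41 on the Control arrays (change -1.03, SE 0.09, adjusted p = 0.00441). Of 22 stem and progenitor genes 20 were tested, 1 rose and 3 fell (0 and 0 with either Control array left out). Hhex, a homeobox factor of early lymphoid cells, rose by 0.71, while Hoxa10 fell by 0.74, Flt3 by 0.50 and the ETS-family repressor Etv6 by 0.39. Hoxa9, a homeobox gene of blood progenitors, differed by -0.34 and did not pass (adjusted p = 0.122). For comparison with both lists, 2.16% of all genes tested rose and 2.06% fell.

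Of 24 adhesion and migration genes 23 were tested, 2 rose and 1 fell (all genes: 2.16% rose, 2.06% fell). Nedd9 and the chemokine receptor Cxcr4 (0.41) rose and the integrin chain Itgb3 (-0.77) fell, and without Control 1 only 1 rise passed and without Control 2 none of the 23. Ccr7, a homing receptor, read 7.17 and 6.67 on the Pax5 arrays and 6.28 and 6.09 on the Control arrays, and did not pass (change 0.74, adjusted p = 0.0822). Of 19 interferon response genes 15 were tested, Mx2 rose by 1.30 and the RNA sensor gene Ifih1 fell by 0.77. Of 21 stress and immediate early genes 19 were tested, the phosphatase gene Dusp2 rose by 0.46 and the chaperone gene Hspa5 fell by 0.54. Of 26 Polycomb, corepressor and chromatin remodelling genes 1 rose and 0 fell. Without Control 1 limma called 0 genes of these 3 lists, and without Control 2 only Mx2.

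**Figure D2:**
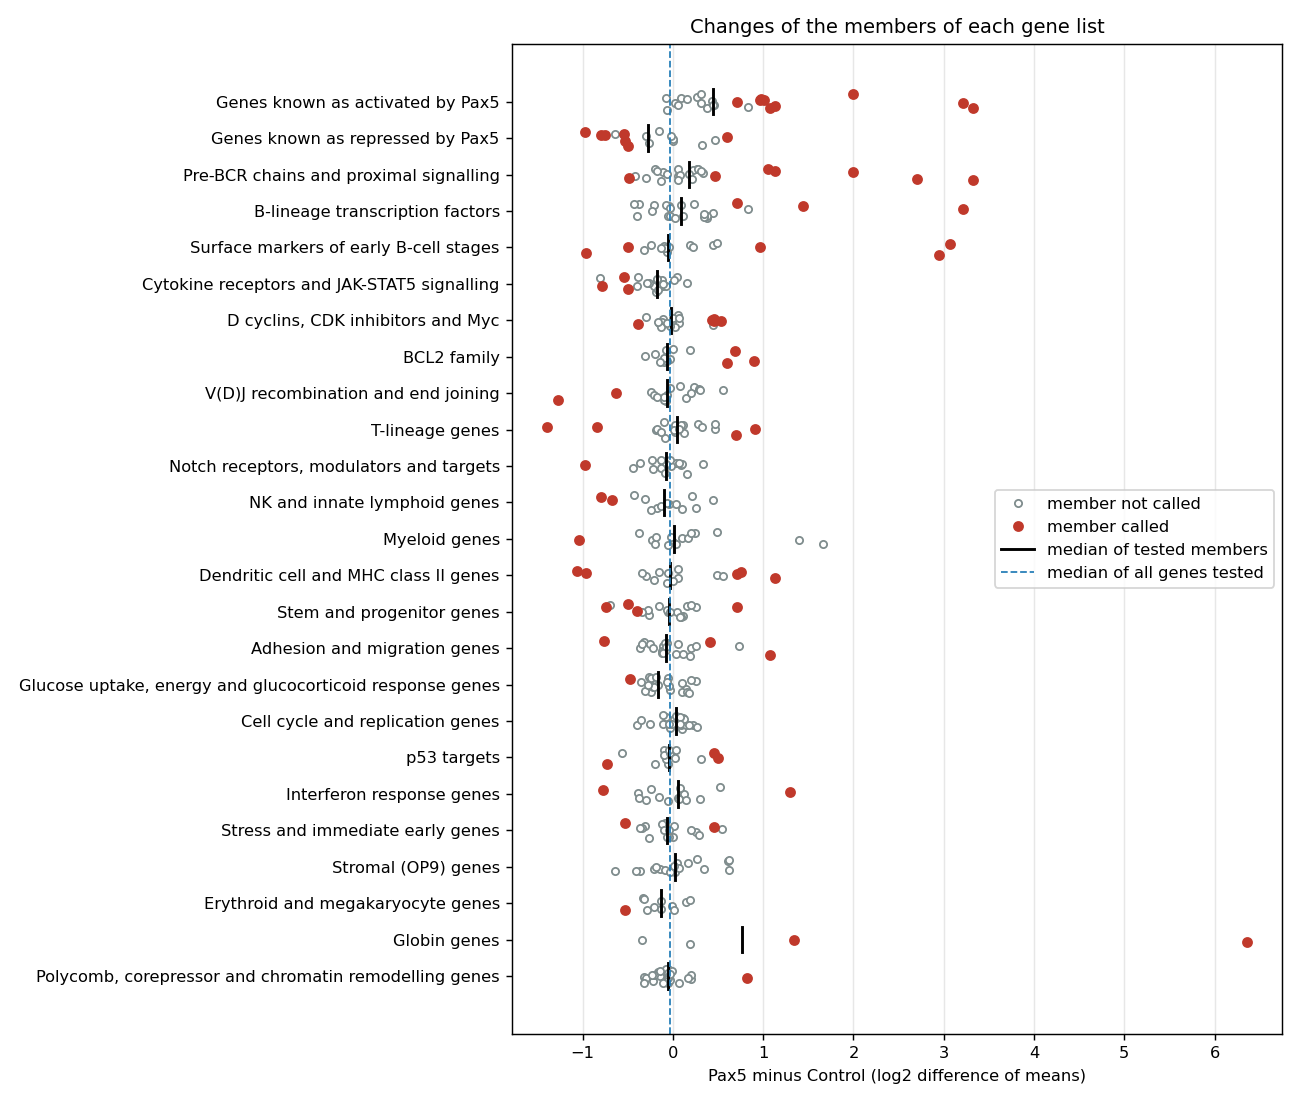
Change of every tested member of 25 gene lists (horizontal axis, Pax5 mean minus Control mean in log2 units), with called members as filled circles, members not called as open circles, the list median as a black bar and the median of all genes tested as a dashed line. Genes known as activated by Pax5 have 9 filled circles right of 0 and 0 left of it, and the globin gene Hbb-bh1 lies at 6.36, far from every other list member.

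The largest signal difference outside the vector gene was at a globin. Hbb-bh1, an embryonic beta-type globin, read 8.63 and 8.75 on the Pax5 arrays, against 2.24 and 2.42 on the Control arrays and 2.26 and 2.30 on the EBF1 arrays (change from Control 6.36, SE 0.09, adjusted p = 5.08e-06). Its Control and EBF1 values lay below the 30th percentile of each array (2.92 to 2.99), so it was tested through the Pax5 arrays alone. Without either Pax5 array it would not have met the filter, so the fits without 1 array are no check of it. The change of 6.36 is then a difference of signals against a level near the floor, not a measured fold of the transcript. Hbb-y, another embryonic globin of chromosome 7, read 3.93 and 4.18 on the Pax5 arrays, against 2.65 and 2.78 on the Control arrays (change 1.34, adjusted p = 0.00394; not passed without Control 1), and probes of related globins may share signal. The Control and EBF1 values of Hbb-y also lay below those percentiles, and the same limit holds for its change. Of 11 listed globins only 4 were tested, and the other 2 did not pass. For comparison with this list and the next, 2.16% of all genes tested rose and 2.06% fell. Of 16 erythroid and megakaryocyte genes 11 were tested, 0 rose and 1 fell (Gp9, a platelet glycoprotein, by 0.53; 0 with either Control array left out), and their summed unlogged signal was 963 and 903 on the Pax5 arrays, against 1074 and 1079 on the Control arrays.

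The remaining large rises came from many functions. Cartpt, a neuropeptide precursor, read 8.02 and 8.30 on the Pax5 arrays, against 4.50 and 4.71 on the Control arrays (change 3.55, SE 0.13, adjusted p = 0.000296). Cpn1, the catalytic subunit of carboxypeptidase N, read 6.19 and 6.41 on the Pax5 arrays, against 2.93 and 3.23 on the Control arrays (change 3.22). Pgf, placental growth factor, read 6.55 and 6.58 on the Pax5 arrays, against 4.01 and 4.23 on the Control arrays (change 2.45). In these 3 genes for secreted products the groups lay much further apart than the arrays of a group. The Control values of Cpn1 lay near the 30th percentile of their arrays (2.99 and 2.92), so its change is a difference against a level near the floor.

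Lta, the cytokine lymphotoxin alpha, read 7.68 and 7.53 on the Pax5 arrays, against 5.41 and 5.26 on the Control arrays (change 2.27, adjusted p = 0.000296). Elovl6, a fatty acid elongase, read 9.65 and 9.81 on the Pax5 arrays, against 7.62 and 7.54 on the Control arrays (change 2.16, adjusted p = 0.000296). Etv5, an ETS-family transcription factor, read 6.71 and 6.75 on the Pax5 arrays, against 4.78 and 4.77 on the Control arrays (change 1.96), and its second probe set also rose (1.11, adjusted p = 0.0178 over all probe sets). The choice of these genes required both Pax5 arrays to lie beyond both Control arrays, which held for 51.4% of all genes tested.

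The rest of the 20 largest rises were 3 genes of membrane transporters, a small GTPase gene, an endogenous retroviral gene and Bin1. The organic anion transporter Slco4a1 rose by 2.03, the anion transporter Slc26a11 by 1.93, and the lipid flippase Atp8a1 by 1.81. Rasl10a, a Ras-like GTPase, rose by 2.11, and Syna, the envelope-derived syncytin A, by 1.93. Bin1, a membrane-curving adaptor, read 7.85 and 7.79 on the Pax5 arrays, against 6.14 and 6.13 on the Control arrays (change 1.68, SE 0.07). The 20 largest rises include the vector gene Pax5, and also Blnk and Hbb-bh1, which were tested through the Pax5 arrays alone. Genes were not filtered anew in the fits without 1 array. Of the 20 largest rises 19 passed whichever array was left out, Vpreb3 being the exception.

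The 20 largest falls were smaller, between -1.84 and -1.02, and only 6 of them passed whichever array was left out. The largest was the unnamed locus LOC100502704, which read 5.27 and 5.21 on the Pax5 arrays, against 7.12 and 7.04 on the Control arrays. The unnamed gene 5830411N06Rik read 6.77 and 6.87 on the Pax5 arrays, against 8.17 and 8.13 on the Control arrays (change -1.33). Gria3, a glutamate receptor subunit, read 7.95 and 7.94 on the Pax5 arrays, against 9.00 and 8.99 on the Control arrays (change -1.05, SE 0.07). Besides Siglech, the others of the 6 were the galactosyltransferase gene B3galt5 (-1.12) and the atypical GTPase gene Rhobtb1 (-1.06).

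Among the 14 that lost their call without one array or another, 3 encode lymphoid or myeloid proteins already described, Ctla4, Dntt and Mpo. Pdcd1, the inhibitory receptor PD-1, read 4.94 and 4.51 on the Pax5 arrays, against 5.70 and 5.90 on the Control arrays (change -1.08, SE 0.17, adjusted p = 0.0243). One immunoglobulin heavy-chain variable segment fell by 1.06, with -0.996 at its second probe set, although variable segments are too alike for probes to be sure of one. The vesicular glutamate transporter Slc17a8 fell by 1.32, the phosphatase Ptpn21 by 1.24, the odorant receptor Olfr525 by 1.17 and Erich1 by 1.09. The homeobox gene Hoxa11 fell by 1.06, the potassium channel subunit Kcne3 by 1.05 and the small GTPase Rab7b by 1.04. The protease subunit Capn2 fell by 1.03 and the tropomyosin Tpm2 by 1.02. Of the 20 falls, 10 were also lower than in EBF1 cells, 1 was higher (5830411N06Rik) and 9 did not pass. Over all genes, 8.72% were lower and 5.2% higher in Pax5 than in EBF1 cells. The same Pax5 arrays chose these 20 genes, so this count is a description. The EBF1 mean minus the Control mean was also negative for them (-1.75 for Dntt, -1.02 for Ctla4), except for Erich1 (0.02), Hoxa11 (0.02) and Tpm2 (0.75).

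The 2 Pax5 arrays differed from each other more than the Control arrays did. Over the tested genes, array 1 minus array 2 had an SD of 0.263 for Pax5, 0.161 for EBF1 and 0.152 for Control. Measured alone against the Control mean, Pax5 1 had 92 genes at least 2-fold higher and Pax5 2 had 112, and 75 were common to both, 81.5% of the Pax5 1 genes and 67.0% of the Pax5 2 genes. For genes at least 2-fold lower the arrays gave 23 and 75, with 14 in common, 60.9% of the Pax5 1 genes and 18.7% of the Pax5 2 genes. The 2-fold falls therefore depended on the array much more than the 2-fold rises. Pax5 2 also had the lowest median of all arrays (4.06, against 4.17 on Pax5 1). Its 30th percentile was the highest (3.04, against 2.98 on Pax5 1). With each array centred on its median, 16 called genes were at least 2-fold lower and 104 at least 2-fold higher, against 24 and 94 without centring. How far the distribution of values on Pax5 2 set its count of falls was not tested.

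**Figure D3:**
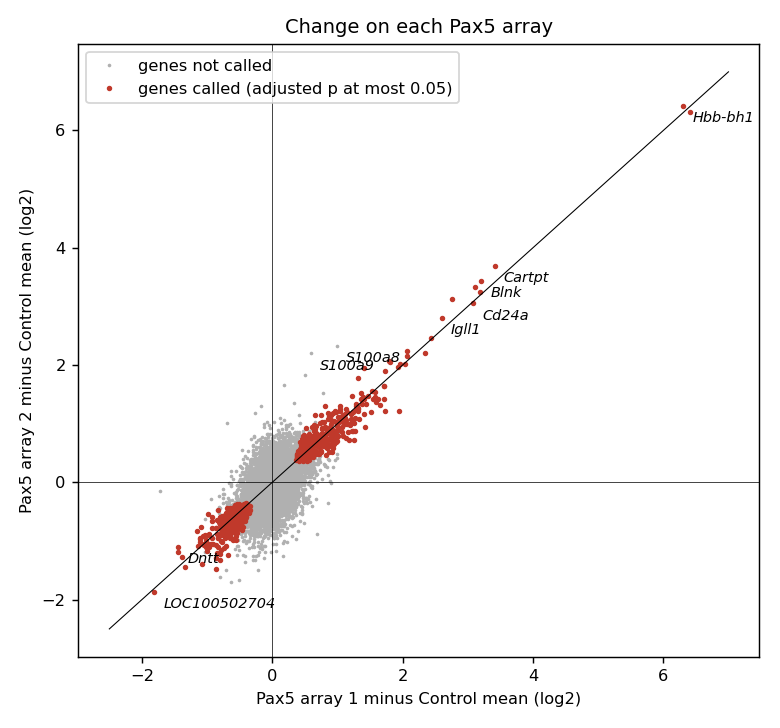
Change of each tested gene on Pax5 1 (horizontal axis) and on Pax5 2 (vertical axis), each minus the Control mean in log2 units, with called genes as larger red points and the line of equal change. The largest rises, such as Blnk at 3.21 and 3.43, lie near the line, while S100a8 and S100a9 lie above it and were not called.

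Markers of other cell types were among the genes that set the Pax5 arrays apart. S100a8, a calprotectin subunit abundant in neutrophils, read 4.41 on Pax5 1 and 5.75 on Pax5 2, against 3.33 and 3.50 on the Control arrays (change 1.66, SE 0.39, adjusted p = 0.0818). S100a9, the other subunit, read 4.85 and 6.45 on the Pax5 arrays, against 4.25 and 4.25 on the Control arrays (change 1.40, adjusted p = 0.176). The source of the S100a8 and S100a9 signal was not tested. Mpo, the only called gene of the myeloid list, was lower on both Pax5 arrays. The summed unlogged signal of that list was 1170 and 1167 on the Pax5 arrays, against 1287 and 1309 on the Control arrays. Without Mpo the sums were 1091 and 1081 on the Pax5 arrays, against 1119 and 1139 on the Control arrays, and the median change of the list was 0.02.

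Of 20 stromal genes, markers of the OP9 cells the progenitors grew on, 18 were tested and limma called 0 (4 rises and 2 falls without Pax5 1; median change 0.02). Sparc, a matrix protein, read 7.51 and 8.02 on the Pax5 arrays, against 7.21 and 7.10 on the Control arrays. Col1a2, a collagen chain, read 5.31 and 6.04 on the Pax5 arrays, against 5.11 and 5.01 on the Control arrays. Dcn, the proteoglycan decorin, read 3.72 and 4.34 on the Pax5 arrays, against 3.44 and 3.38 on the Control arrays. Among the Pax5 and Control arrays all 3 were highest on Pax5 2, and they did not pass. Acta2, smooth muscle actin, was lower in Pax5 cells (5.05 and 4.73, against 5.44 and 5.62 in Control cells, adjusted p = 0.062). For comparison with this list, 2.16% of all genes tested rose and 2.06% fell. The summed unlogged signal of the list was 1041 and 1178 on the Pax5 arrays, against 999 and 975 on the Control arrays and 1228 and 1225 on the EBF1 arrays. Its part in the changes of other genes was not tested.

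**Figure D4:**
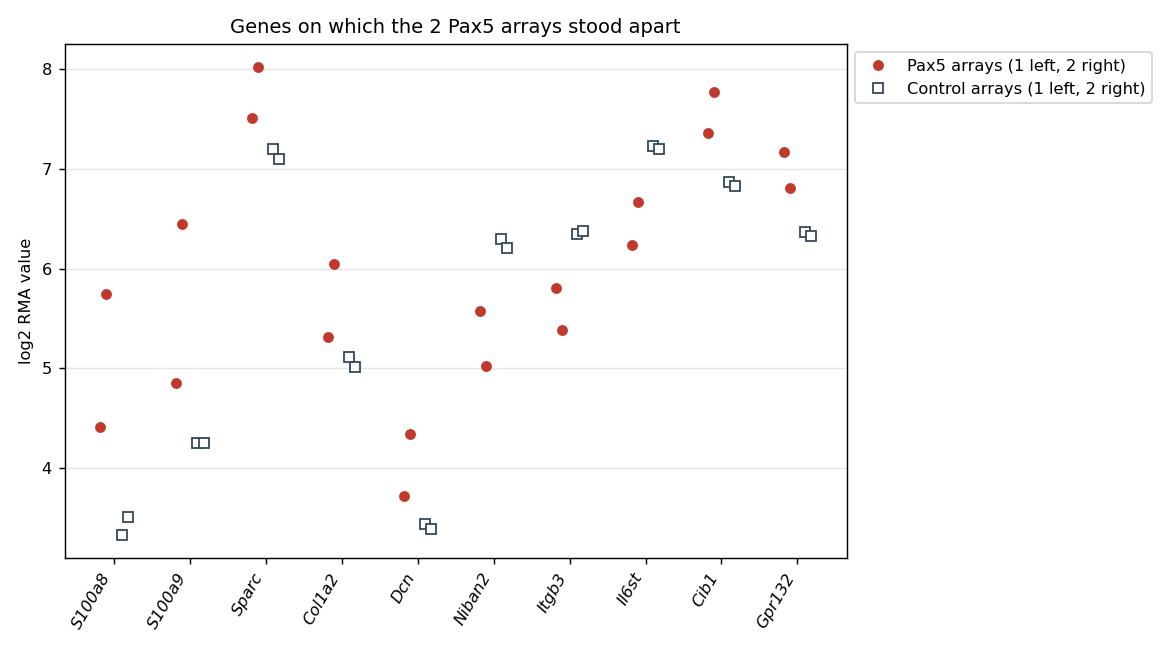
Log2 RMA values (vertical axis) of 10 genes on the 2 Pax5 arrays (filled circles, array 1 left) and the 2 Control arrays (open squares, array 1 left). S100a8 lies at 4.41 on Pax5 1 and 5.75 on Pax5 2, and in the 5 called genes on the right, Niban2 to Gpr132, the Pax5 arrays differ by 0.36 to 0.56 while both stay on one side of the Control arrays.

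Among the called genes, the 5 with the largest difference between the Pax5 arrays relative to their change were Niban2, Cib1, Il6st, Gpr132 and Itgb3. Niban2 read 5.58 and 5.02 on the Pax5 arrays, against 6.30 and 6.21 on the Control arrays (change -0.96, SE 0.17, adjusted p = 0.0392). Il6st, the shared signalling chain of IL-6 family receptors, read 6.24 and 6.67 on the Pax5 arrays, against 7.23 and 7.20 on the Control arrays (change -0.76, adjusted p = 0.0425). Niban2 was lower on Pax5 2 and Il6st lower on Pax5 1, so the arrays did not differ in one direction only. Cib1, a calcium-binding protein, rose by 0.72 and Gpr132, a G-protein-coupled receptor, by 0.64.

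The promoters of the genes that moved were read for 2 motifs, taken from RefSeq (GRCm38.p6) as the 250 bases before each gene's start. The first, GCGTGAC on either strand (GTCACGC on the other), holds the core of the sequence bound by the paired domain, and the second, CCCNNGGG, is the palindrome bound by EBF factors. Both strands were searched, and matches of the 2 motifs were allowed to overlap. The Pax5 core was in 9 of the 258 rises that have a promoter entry (3.49%), in 6 of 258 falls (2.33%) and in 406 of all 11576 tested genes with an entry (3.51%). The EBF palindrome was in 62 of 258 rises (24.0%), in 54 of 258 falls (20.9%) and in 18.1% of all. The share of rises with the Pax5 core was thus close to that of all genes. Pgf alone among the 16 entries of the 20 largest rises held it. The promoters of Blnk and Igll1, which rose with Pax5, and of Pgf are printed 5′ to 3′ on the gene's strand, with matches in capitals.
Blnk (chr19:40994222-40994471, minus strand, no match of either motif): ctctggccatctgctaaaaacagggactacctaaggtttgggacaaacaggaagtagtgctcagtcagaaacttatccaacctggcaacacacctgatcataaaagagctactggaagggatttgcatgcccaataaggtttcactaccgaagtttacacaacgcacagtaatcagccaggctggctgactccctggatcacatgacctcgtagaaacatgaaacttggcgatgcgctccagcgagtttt
Igll1 (chr16:16863986-16864235, minus strand, EBF palindrome in capitals): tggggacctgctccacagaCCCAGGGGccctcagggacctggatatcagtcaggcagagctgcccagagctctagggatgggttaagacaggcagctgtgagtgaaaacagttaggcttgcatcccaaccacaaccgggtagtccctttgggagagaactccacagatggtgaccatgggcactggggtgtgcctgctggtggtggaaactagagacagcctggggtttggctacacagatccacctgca
Pgf (chr12:85177314-85177563, minus strand, EBF palindrome and then the Pax5 core on its other strand in capitals): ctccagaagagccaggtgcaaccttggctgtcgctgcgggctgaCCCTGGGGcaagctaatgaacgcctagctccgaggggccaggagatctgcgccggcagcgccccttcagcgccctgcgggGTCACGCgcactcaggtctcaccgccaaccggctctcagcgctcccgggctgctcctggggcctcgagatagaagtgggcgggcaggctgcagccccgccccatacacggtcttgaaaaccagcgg
A match says only that these letters are in this window, and its absence from the Blnk window says nothing on binding elsewhere.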

How the data were processed

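Expression was measured on 6 Affymetrix arrays, 2 per group. The authors worked with RMA and Partek 6.5, per the submitters' processing notes, and the deposited values are log2 expression values. RMA's options and the probe annotation's version and build were not given in the labels or file headers. Another deposited table holds the same log2 values beside the authors' p-values, per the file headers, which served as an alternative. Of 28350 probe sets, 22969 carried 1 symbol (annotation text cut at 255 characters), 2285 several and 3096 none. Symbols were updated through RefSeq gene identifiers (22138 matched). The probe set with the highest mean stood for a gene, and a gene was tested if at least 2 arrays had it above their 30th percentile, 15295 in all.

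Tests were run in R 4.3.3 with limma 3.58.1 (lmFit and eBayes, two-sided) on 1 model of 3 group means. The fit had 3 residual and 3.18 prior degrees of freedom and was checked on simulated data with the same spread in all groups. That check does not cover the wider spread between the Pax5 arrays, and the model likewise uses a spread shared by the groups. Intervals are at 95% and come from the fit of the measured arrays. RMA gives no detection call, and precision is limited by the number of arrays. Array medians ran between 4.06 (Pax5 2) and 4.17 (Pax5 1).

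The genes named are both vector genes, the 20 largest rises and 20 largest falls among called genes with both Pax5 arrays beyond both Control arrays, members of the 25 lists (472 genes, 417 tested, 39 in several lists) with the counts of their list, and the 5 called genes on which the Pax5 arrays differed most relative to the change. Some members are counted with their lists but not reported here. The members and lists were chosen with earlier results of these data known. Alternatives were other filters, normalizations, probe set means, a trended robust fit, the 4 arrays alone, a replicate block, the deposited p-values and leaving out each array.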

Additional observations from a re-analysis of the deposited data

How the results depend on the processing

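Against 646 genes called, 240 were called with the 4 arrays alone, 1000 with a filter at the 50th percentile, 1643 with the trended robust fit and 100 with the deposited p-values. With the replicate number as a block 412 were called. Deviations of same-numbered Pax5 and Control arrays from their group means were uncorrelated across genes (r = 0.007). A correlation across genes cannot show a shift of a whole array. Array 1 had the higher median in each group: 4.165 against 4.117 for Control, 4.146 against 4.115 for EBF1 and 4.167 against 4.062 for Pax5. The labels do not say whether same-numbered arrays belong together. Leaving out 1 array gave 60 to 2407, lowest without Control 1 (62 without Control 2) and highest without Pax5 1. Of the 646, 640 were called again without Pax5 1 and 397 without Pax5 2. The 118 genes called at 2-fold or more became 30 with the deposited p-values and ran from 59 (without Control 1) through 62 (without Control 2) to 184 (without Pax5 1). In a fit without 1 array the spread comes from the other groups, so part of these shifts follows from the design. Leaving out either EBF1 array repeats the fit of the 4 arrays alone. Array 1 minus array 2 had an SD of 0.263 for Pax5 and 0.152 for Control. Any further cause was not tested.

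Of the 95 called genes described one by one, 55 kept the call with the 4 arrays alone and 67 with the block. With quantile normalization or with median centring 89 kept it, and with the deposited p-values 20 did. None of the 95 changed direction in these settings or with 1 array left out. For the fits without 1 array this was fixed in advance, since the groups of all 646 called genes do not overlap. The 4 arrays alone, the block and the deposited p-values leave the change itself as it was. Genes not called that changed direction were Cd79a (-0.089 without Pax5 1, up to 0.617 without Pax5 2), Cd79b (-0.277 without Pax5 1, -0.008 without Control 2, up to 0.387 without Pax5 2) and Vpreb2 (0.119 without Control 1, 0.143 without Pax5 2, down to -0.355 without Pax5 1).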
